A study of Mus musculus with 8 samples.

Results

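The 48 Hox genes and Hox-cluster transcripts of the mouse were examined in colonic organoids, three-dimensional cultures of gut epithelium grown from isolated crypts. They were taken by a rule on names, set with earlier results of these data known. The rule took 48 of the 45777 rows of the deposited gene table. Their symbols begin with Hotair, or with Hox, a cluster letter from a to d and a group number or "as". Of these, 39 are protein-coding genes and 9 are antisense or other non-coding transcripts. The KO group held 4 libraries (replicates 5 to 8) from Reg3aΔIEC mice, in which Cre driven by the Villin promoter removes the floxed exons 2 to 4 of Reg3a in intestinal epithelium. The WT group held 4 libraries (replicates 13 to 16) from Reg3a fl/fl mice, which carry the floxed alleles and, as far as the labels say, no Cre. Both groups share the floxed allele and the culture: the protocol names C57BL/6J mice, male donors aged 9 weeks, at most 15 passages, collection 3 days after passage and no treatment. Reg3a encodes a secreted lectin that acts on bacteria and on epithelial repair. The labels contradict each other on replication, stating 1 mouse per genotype plated in 4 wells in one place and 3 mice per genotype in another. The p-values therefore measure the spread between libraries, which may be technical, and genotype cannot be told apart from the mouse or organoid line. Because Cre is named for the KO group only, loss of Reg3a cannot be told apart from the presence of Cre.

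Hox genes encode homeodomain transcription factors that give cells their position along the head-to-tail axis. They lie in 4 clusters, and within each cluster the genes stand in the order of their paralog groups, from group 13 at the 5′ end to group 1 at the 3′ end. Genes of 1 group in different clusters are close relatives descended from the same ancestral gene. Genes near the 3′ end are classically active early and far forward in the embryo, and genes near the 5′ end late and far back, including the hindgut, from which the colon forms. Adult gut epithelium keeps part of this positional code.

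Library totals ran from 37182098 to 49256171 counts. Reg3a had 0 counts in all 8 libraries, so it does not check the genotype labels. All 8 epithelial marker genes were tested, and their summed level was 13698 to 14438 CPM (counts scaled to a common library size, with TMM factors) in KO and 13280 to 14190 CPM in WT. Of 14945 genes with enough counts for a test, 1140 (7.63%) were called higher in KO and 1234 (8.26%) lower, by edgeR's quasi-likelihood test at a Benjamini-Hochberg adjusted p of 0.05. In 1481 genes (9.91%) every KO library lay above every WT library. KO replicate 6 stood apart in endothelial RNA: its 6 endothelial markers summed to 2.06 CPM against at most 0.0959 CPM in any WT library, with Emcn at 0. Its Lyz2, a macrophage lysozyme, was 9.9 CPM with 0 in the other libraries. The other immune markers did not follow Lyz2 in that library. Ptprc, Cd3e, Cd79a and Tyrobp were at 0, and Cd68 (33.5 CPM), Itgam (0.866 CPM) and Csf1r (0.598 CPM) lay within the range of the other libraries.

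Hox RNA in these organoids was mostly that of the posterior end of the clusters. Hoxb13, the group 13 gene of cluster b, was the most abundant member at a mean of 355 TPM (the authors' unit, scaled for transcript length and depth), with 343 to 375 TPM over the 8 libraries, and 99.1% of all genes in the table had a lower mean TPM. Hoxd13 and Hoxa13, the group 13 genes of the other expressed clusters and known for their part in hindgut and limb patterning, averaged 78.8 TPM (72 to 90.7) and 41.9 TPM (38.9 to 44.9). Together the 4 genes of group 13 made up 66.4% ± 1.1 (SD, n = 4) of the summed TPM of protein-coding Hox genes in KO and 69.4% ± 1.14 in WT. Groups 9 to 13 held 89.1% in KO and 92.3% in WT, groups 5 to 8 held 8.73% and 5.79%, and groups 1 to 4 held 2.13% and 1.94%.

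The order of levels placed Hoxb13 first, then Hoxd13, and then Hoxa10 (64.6 TPM) and Hoxa9 (60.3 TPM), whose ranges over the 8 libraries overlapped. Below them came the antisense transcript Hoxa11os at 51.2 TPM, Hoxa13, Hotairm1 at 24.2 TPM (3.1 CPM) and Hoxb9 at 17.3 TPM. From Hotairm1 downward every member's range overlapped that of the next in the order, so neighbours there could not be separated over all 8 libraries. The middle of the order held Hoxa7 (13.1 TPM), Hoxb6 (11.6 TPM), Hoxb7 (8.39 TPM), Hoxa5 (8.24 TPM) and Hoxa3 (6.54 TPM). The lowest tested member was Hoxb4 at 0.42 TPM. By cluster, b held 58.3% ± 1.31 of the coding Hox TPM in KO and 55.8% ± 1.69 in WT, a held 29.1% and 30.2%, d held 12.6% and 13.9%, and c held 0%.

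**Figure D1:**
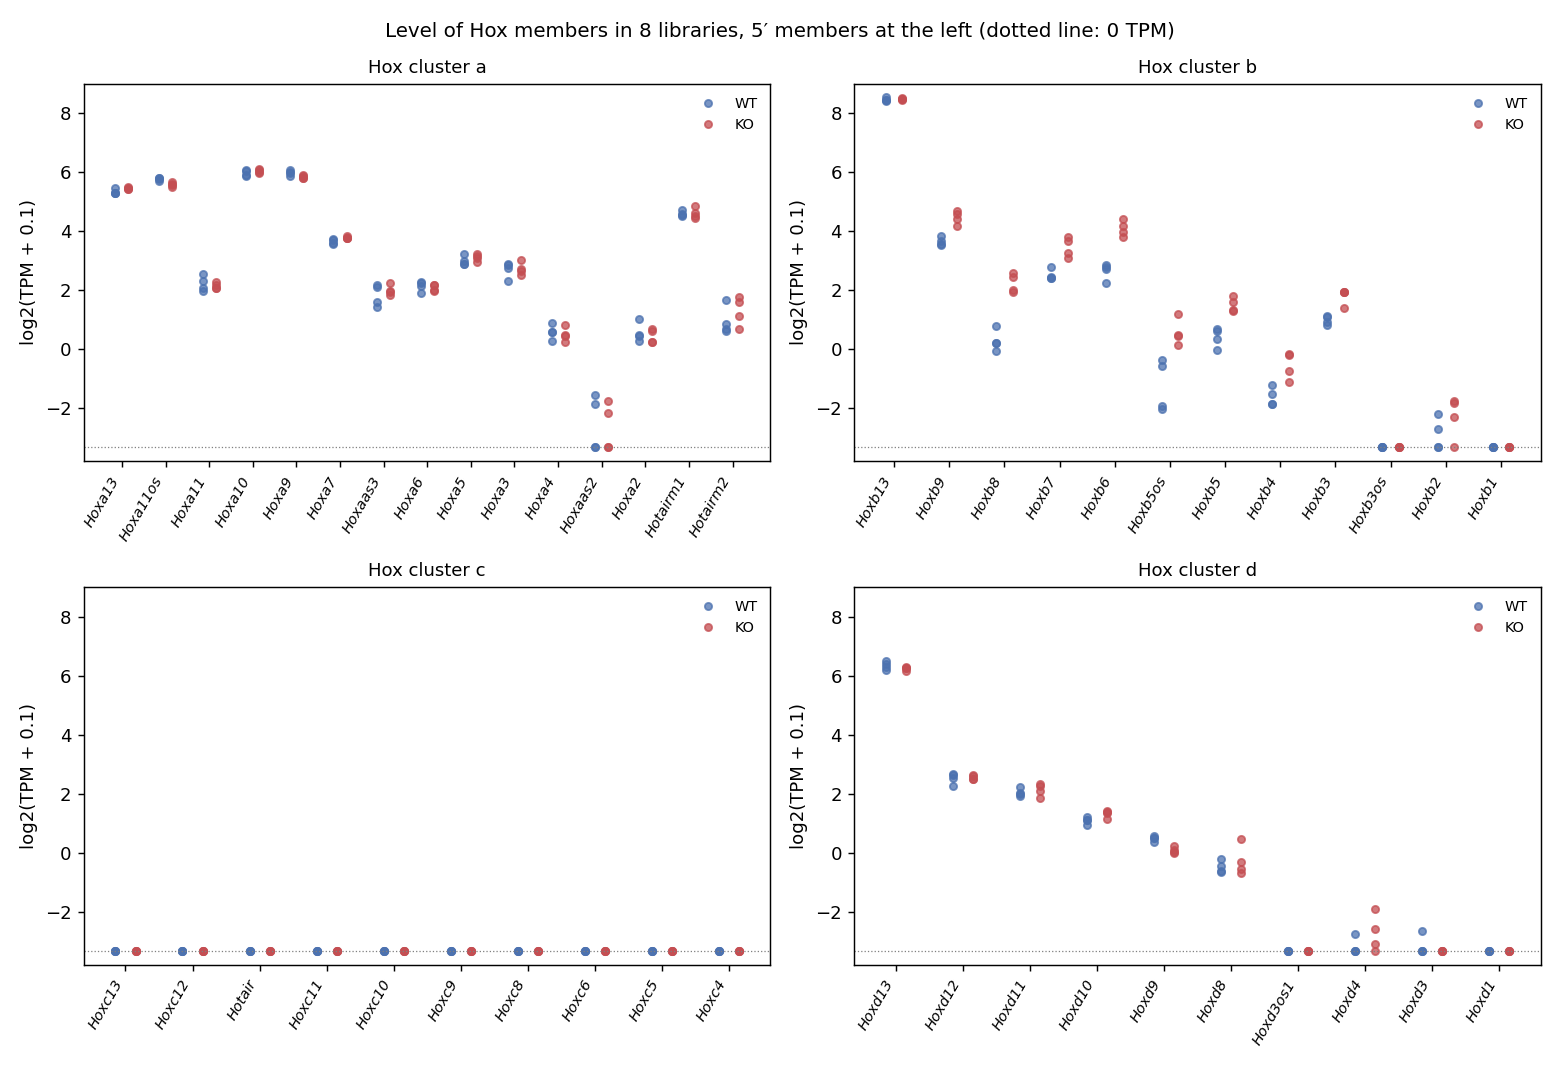
Level of the members in every library, as log2(TPM + 0.1) on the vertical axis. The members of each cluster are ordered by gene midpoint from the 5′ end at the left, so Hoxa3, with its long span, stands before Hoxa4. Blue points are WT libraries, red points KO libraries, and the dotted line marks 0 TPM. Hoxb13 stands highest, all 10 members of cluster c lie on the line of 0, and Hoxb9 to Hoxb3 are the stretch where the red points lie above the blue.

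Silent genes were those with 0 counts in all 8 libraries, and there were 14. All 10 members of cluster c were silent: Hoxc4, Hoxc5, Hoxc6, Hoxc8, Hoxc9, Hoxc10, Hoxc11, Hoxc12, Hoxc13 and Hotair, a long non-coding RNA named for its antisense position in the cluster. The other silent members were Hoxb1 and Hoxd1, both of group 1, and the antisense transcripts Hoxb3os and Hoxd3os1. A count of 0 allows up to 3 counts in a library, which is 0.0606 to 0.081 CPM by library (counting error only; 6 counts, or 0.121 to 0.162 CPM, if both mates of a read pair were counted). Among protein-coding members 11 of 39 were silent, while 6269 of all 21949 protein-coding rows (28.6%) were, so the share of silent Hox genes lay near that of all coding genes. The silent members were placed unevenly: cluster a had none, cluster b 2 of 12, cluster d 2 of 10 and cluster c 10 of 10.

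Another 4 members had some counts but too few for the test. Hoxb2 had 0, 6, 2 and 0 counts in the WT libraries and 7, 5, 0 and 7 in the KO libraries, in replicate order. Hoxd4 had 0, 0, 3 and 0 counts in WT and 1, 11, 5 and 0 in KO. Hoxd3 had 4 counts in 1 WT library and 0 elsewhere, and the antisense Hoxaas2 had at most 8. These are members of groups 2 to 4 or lie among them, toward the 3′ end of their clusters.

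Of the 30 tested members, 8 were called higher in KO, against 7.63% of all genes tested, and 2 were called lower, against 8.26%. All 8 higher members lay in cluster b, where they were 8 of the 9 tested. Among them, the antisense Hoxb5os had enough counts for the test only through its KO libraries. Neither its call nor its separated libraries therefore add support to these counts. Cluster a had 0 higher and 2 lower among 15 tested, and cluster d had none of 6 called. The median log2 fold change (KO minus WT) was 1.11 in cluster b, -0.01 in cluster a and 0.02 in cluster d, beside -0.0012 over all genes tested. Of the 8, 5 were at least 2-fold higher, out of 120 such genes in the whole table. In 9 of the 30 tested members every KO library lay above every WT library, beside 9.91% of all genes: the 8 called genes and Hoxa7. These are bulk libraries, so more cells that express a gene and more RNA per cell cannot be told apart.

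**Figure D2:**
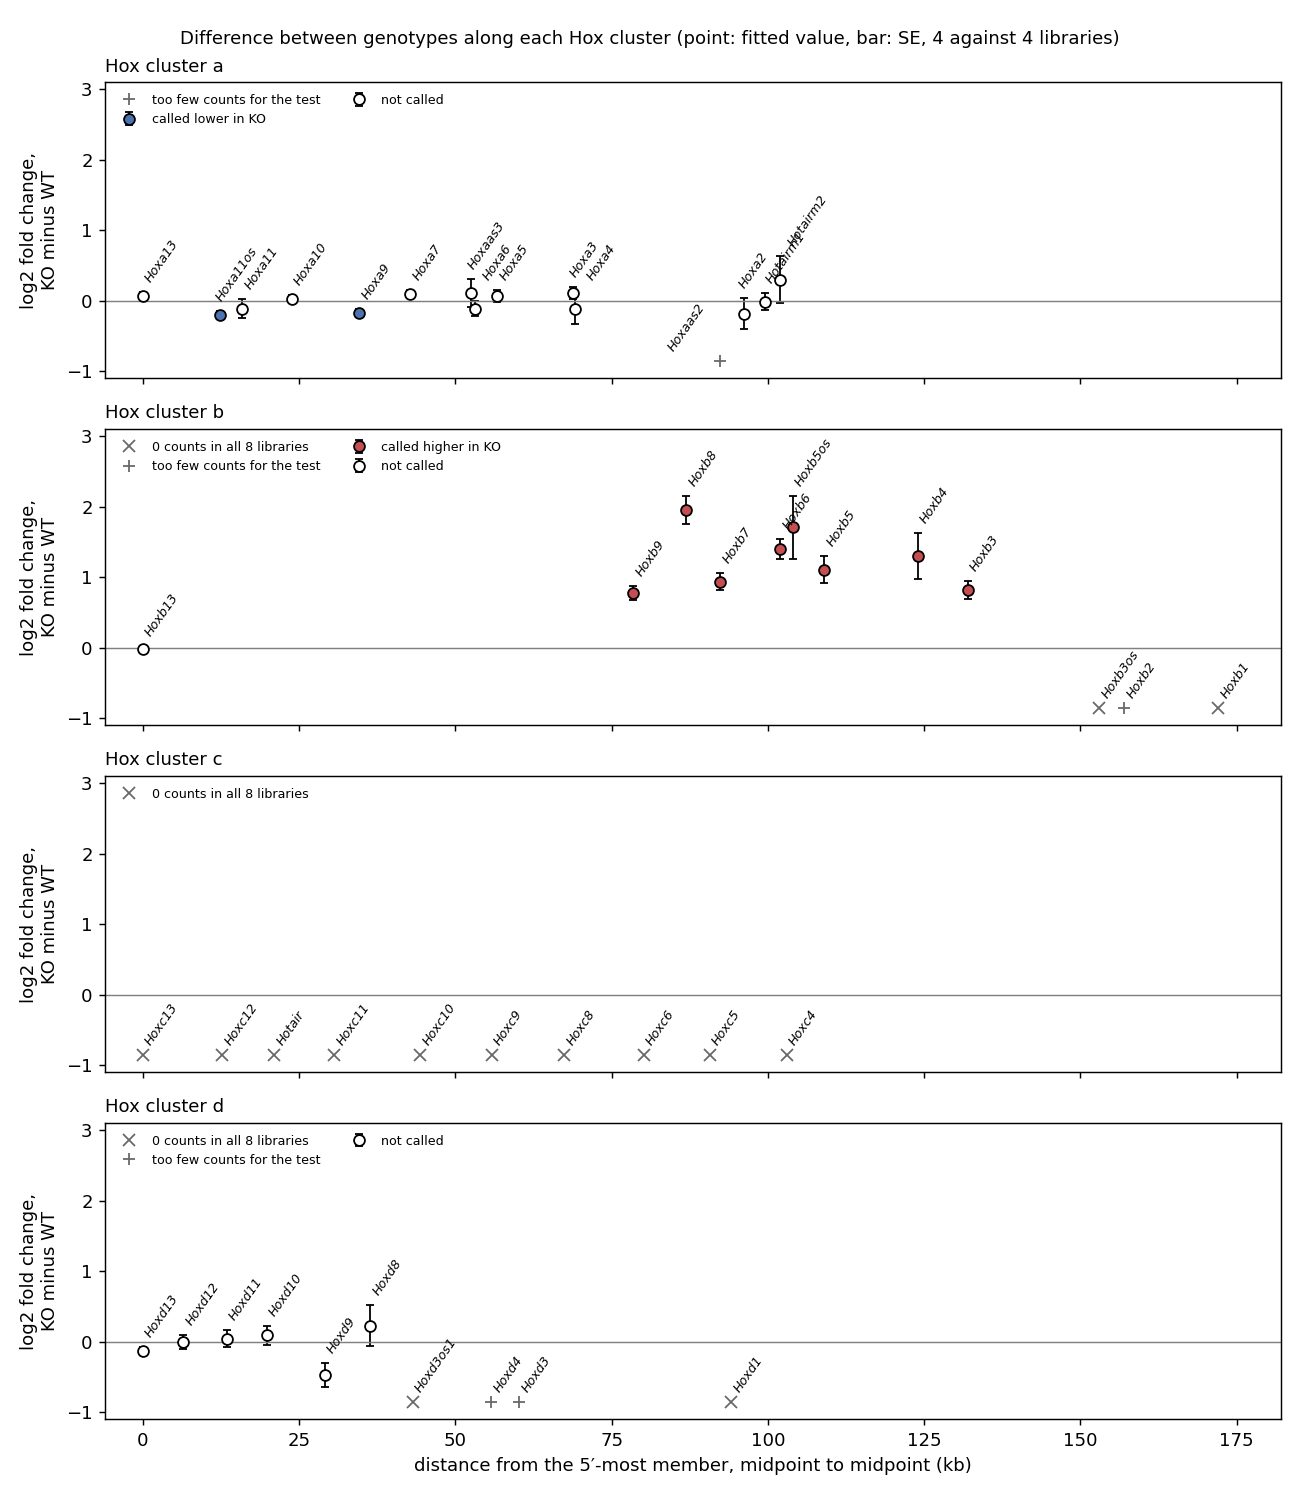
Fitted log2 fold change (KO minus WT, bars are SE, 4 against 4 libraries) of the tested members against their distance in kb from the 5′-most member of the cluster, measured between gene midpoints; red marks genes called higher, blue genes called lower, white genes not called, and crosses and plus signs at the bottom mark silent and near-silent members. In cluster b the red points run from Hoxb9 at 78.5 kb to Hoxb3 at 132 kb with values from 0.78 to 1.95, while Hoxb13 at 0 kb lies at -0.02.

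Cluster b lies on chromosome 11 of GRCm38 (chr11:96194316-96368254) and reads on the plus strand from Hoxb13 to Hoxb1. Hoxb8, a trunk-level gene also used to hold myeloid progenitors in culture (chr11:96279401-96285325), had the largest difference of any member. Its level was 1.08, 1.43, 1.32 and 2.21 CPM in the WT libraries and 7.26, 4.7, 4.89 and 6.41 CPM in the KO libraries, so the lowest KO library was above the highest WT library by more than the whole WT range. The log2 fold change was 1.95 ± 0.20 (SE; 95% interval 1.52 to 2.39), a fold of 3.88 (edgeR adjusted p = 3.8e-05). Hoxb6, a trunk-level gene further toward the 3′ end (chr11:96292814-96301569), was more abundant per length (17 TPM in KO, against 4.7 TPM for Hoxb8). It measured 3.79, 5.82, 5.15 and 5.61 CPM in WT and 16.6, 11, 12.2 and 13.9 CPM in KO. Its groups did not overlap, and the log2 fold change was 1.40 ± 0.14 (fold 2.63, edgeR adjusted p = 3.4e-05). Hoxb7, which stands between them (chr11:96285604-96290163), gave 4.44, 5.25, 5.41 and 5.37 CPM in WT and 12.1, 8.31, 8.59 and 10.5 CPM in KO, a log2 fold change of 0.94 ± 0.12 (edgeR adjusted p = 2.0e-04).

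Hoxb9, the 5′-most of the raised genes and a patterning gene of the thoracic region (chr11:96271330-96276595), was the most abundant of them per length (22.1 TPM in KO and 12.5 TPM in WT). It measured 16.3, 19.8, 17.1 and 16 CPM in WT and 34.3, 24.6, 28.6 and 31.9 CPM in KO, without overlap, and the log2 fold change was 0.78 ± 0.10 (fold 1.72, edgeR adjusted p = 1.5e-04). Toward the 3′ end, Hoxb5, known for its role in the enteric neural crest (chr11:96303512-96306121), lay between 0.851 and 1.47 CPM in WT and between 2.27 and 3.21 CPM in KO (1.11 ± 0.19, edgeR adjusted p = 0.00162). Hoxb3, a hindbrain-level gene (chr11:96307101-96347930), measured 3.48, 3.21, 2.94 and 3.67 CPM in WT and 6.41, 4.41, 6.29 and 6.31 CPM in KO (0.82 ± 0.13, edgeR adjusted p = 9.9e-04). It was the last tested gene toward the 3′ end, since Hoxb2 had too few counts and Hoxb1 none.

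The remaining 2 of the 8 had few counts. Hoxb4, known for its effect on blood stem cell growth (chr11:96318267-96321638), had 19, 12, 11 and 13 counts in WT and 42, 23, 31 and 48 in KO, and its log2 fold change was 1.30 ± 0.33 (edgeR adjusted p = 0.017). The call was lost without KO replicate 5 (adjusted p = 0.0616) or without KO replicate 8 (0.0708). Hoxb5os, the antisense transcript whose span covers Hoxb6 and Hoxb5 (chr11:96291037-96306910), had 8, 3, 10 and 2 counts in WT and 17, 15, 18 and 30 in KO, with a log2 fold change of 1.71 ± 0.45 (edgeR adjusted p = 0.0196). Leaving out KO replicate 8 (adjusted p = 0.0846), WT replicate 14 (0.0537) or WT replicate 16 (0.0518) ended that call. For both genes the 4 KO libraries still lay above the 4 WT libraries. For Hoxb5os only the KO libraries reached the low-count filter, so that separation is no added support.

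**Figure D3:**
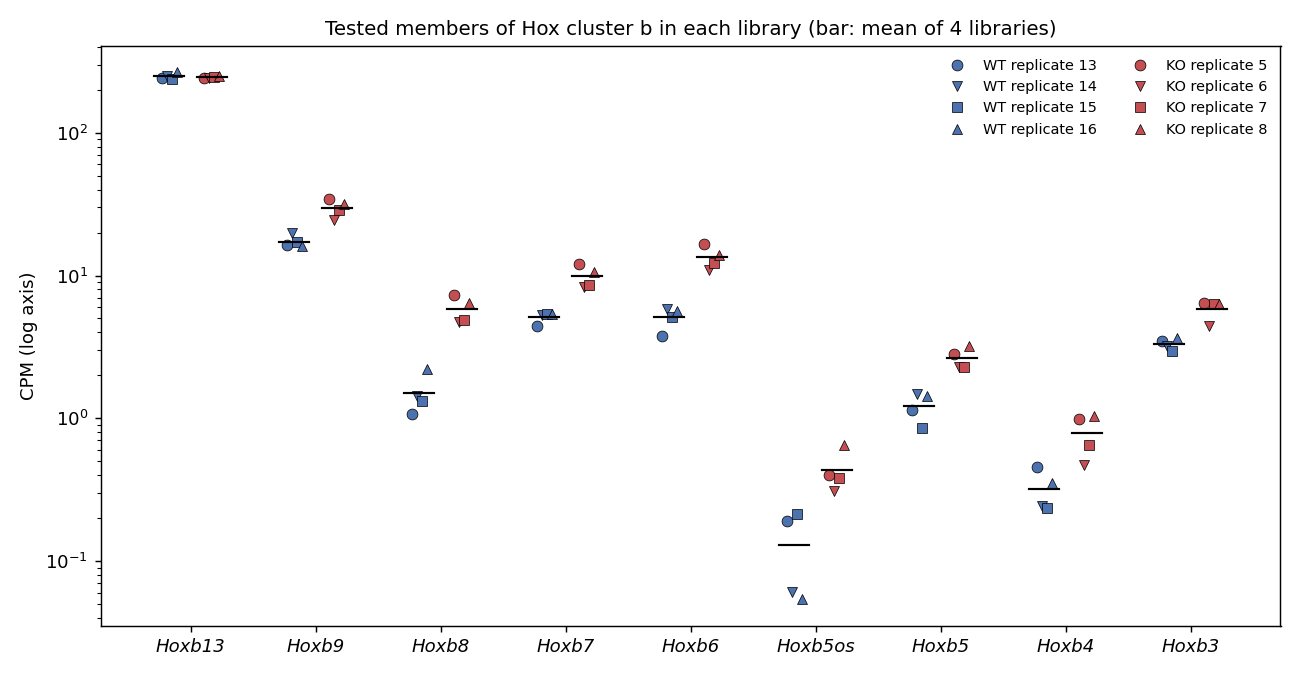
Level of the 9 tested members of cluster b in each library, in CPM on a log axis, in their order along the cluster; blue symbols are WT and red symbols KO libraries, the symbol shape gives the replicate, and the bar is the mean of 4 libraries. The groups overlap at Hoxb13 (WT 237 to 265 CPM, KO 241 to 249 CPM) and are apart for the other 8, with the downward red triangle of KO replicate 6 the lowest red symbol in all 8.

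At the 5′ end of the same cluster Hoxb13 (chr11:96194316-96196610) measured 240, 249, 237 and 265 CPM in WT and 242, 241, 244 and 249 CPM in KO. The libraries of the genotypes overlapped, and the log2 fold change was -0.02 ± 0.04 with a 95% interval from -0.11 to 0.07 (edgeR adjusted p = 0.8). A long interval without Hox genes parts Hoxb13 from Hoxb9, whose midpoints lie 78.5 kb apart. Transcripts in that interval were measured too. Gm53, a non-coding transcript ending just before Hoxb9 (chr11:96251660-96264484), had 18.9 to 22.2 CPM in WT and 19.4 to 22.6 CPM in KO, and its log2 fold change of 0.09 ± 0.07 had a 95% interval from -0.06 to 0.25, below the interval of Hoxb9 (0.57 to 0.99). The transcript Gm11538 was also not called (-0.07 ± 0.09), nor was the row for the precursor of the microRNA miR-196a, Mir196a-1 (0.15 ± 0.17). Gm30134, next to Hoxb13 (chr11:96198863-96203626), was called lower: 29.1, 27.4, 26.6 and 23.9 CPM in WT and 17.4, 20.7, 16.4 and 18.2 CPM in KO, a log2 fold change of -0.56 ± 0.08 (edgeR adjusted p = 3.5e-04). Within cluster b the called rises thus covered the stretch from Hoxb9 to Hoxb3 and no tested transcript 5′ of it. The differences between genes were not tested.

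The summed level of the 7 coding genes from Hoxb9 to Hoxb3 was 26, 31.2, 29.7 and 28.8 TPM in WT and 73.6, 50.2, 55.9 and 67.5 TPM in KO. These genes made up 4.22% ± 0.327 of the coding Hox TPM in WT and 8.59% ± 1.3 in KO, and the ratio of the means was 2.14. The KO libraries kept 1 order across the stretch: KO replicate 6 had the lowest CPM of the 4 in all 8 raised members and KO replicate 7 the second lowest in all 8, while replicates 5 and 8 shared the higher places (replicate 5 was highest in 5 of them and replicate 8 in 3). The WT libraries kept no such order, and the lowest was WT replicate 13 in 3 members, 15 in 3 and 16 in 2. KO replicate 6 is the library with endothelial and Lyz2 RNA. Because it was the lowest KO library in all 8 raised members, leaving it out was bound to raise the differences. The values without it are therefore no check on the part of that RNA, which was not tested. Hoxb8 was then 2.04, Hoxb6 1.48, Hoxb7 1.02, Hoxb9 0.87 and Hoxb3 0.93 on the log2 scale, and all 8 members stayed called.

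The bases just upstream of a transcript start are shown for 3 members that differ in behaviour: Hoxb8, with the largest rise, Hoxb4, which also rose from a low level, and Hoxb1, which was silent. The windows are the 250 bases before a transcript start listed by RefSeq, from GRCm38.p6, plus strand, written 5′ to 3′: chr11:96281655-96281904 for Hoxb8, chr11:96318017-96318266 for Hoxb4 and chr11:96365508-96365757 for Hoxb1. The Hoxb8 and Hoxb1 windows precede transcript starts that lie inside those genes' RefSeq spans, which begin at positions 96279401 and 96365746, so the last bases of the Hoxb1 window and all of the Hoxb8 window fall within the span. Capitals mark TTTAT on either strand (ATAAA is its reverse complement), the core of the sequence that caudal-type homeodomain proteins such as CDX2 prefer.
Hoxb8: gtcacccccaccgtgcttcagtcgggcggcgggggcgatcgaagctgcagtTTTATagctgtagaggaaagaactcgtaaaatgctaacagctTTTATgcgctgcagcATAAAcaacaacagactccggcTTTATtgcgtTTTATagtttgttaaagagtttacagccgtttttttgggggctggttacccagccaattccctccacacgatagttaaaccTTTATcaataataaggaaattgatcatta
Hoxb4: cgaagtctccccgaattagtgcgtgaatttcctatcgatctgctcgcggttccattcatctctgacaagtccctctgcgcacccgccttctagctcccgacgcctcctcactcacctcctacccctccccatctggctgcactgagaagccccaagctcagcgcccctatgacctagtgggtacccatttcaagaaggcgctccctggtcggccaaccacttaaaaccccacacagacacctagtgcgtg
Hoxb1: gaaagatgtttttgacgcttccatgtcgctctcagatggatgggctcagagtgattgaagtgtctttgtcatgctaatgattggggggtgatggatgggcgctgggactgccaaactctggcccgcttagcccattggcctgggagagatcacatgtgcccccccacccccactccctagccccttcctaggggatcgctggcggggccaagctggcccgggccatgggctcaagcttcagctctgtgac
The motif was chosen after the expression values were known. The Hoxb8 window held 6 matches. Of the 32851 windows of 27025 genes in the RefSeq table, 0.393% hold as many or more and 37.3% hold at least 1. The windows of Hoxb4 and Hoxb1 held none. Hoxb8's window was also richer in A and T (44.4% G and C) than those of Hoxb4 (58%) and Hoxb1 (59.2%), and a short motif made of A and T is found more often in such sequence. A match is a description of the letters and not a binding site. In all, 25 members had a window (27 windows), and the next highest count was 4, in Hoxd4, a near-silent gene of cluster d. Hoxb3, Hoxb5, Hoxb5os, Hoxb6, Hoxb7, Hoxb9 and Hoxb13 were not among the 25.

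Cluster a (chromosome 6, chr6:52155367-52260880, minus strand) was expressed along its whole length, with 15 of 16 members tested, and its differences were small. All 15 log2 fold changes lay between -0.20 and 0.30, 7 above 0 and 8 below, and the median was -0.01. The 2 called members were lower in KO. Hoxa11os, the transcript antisense to Hoxa11, measured 48.4, 52.8, 50.1 and 52.5 CPM in WT and 43.8, 45.8, 41.3 and 46.5 CPM in KO, so that all KO libraries lay below all WT libraries (-0.20 ± 0.05, edgeR adjusted p = 0.0179). Hoxa9, a partner of Meis1 in leukaemia, measured 107, 101, 101 and 95.3 CPM in WT and 91.2, 95.2, 86.7 and 87.6 CPM in KO, and the highest KO library lay just below the lowest WT library (-0.17 ± 0.05, edgeR adjusted p = 0.0324). Each call lay near the threshold and was lost when certain single libraries were left out. Over the 17 alternatives the log2 fold change stayed between -0.22 and -0.17 for Hoxa11os and between -0.19 and -0.14 for Hoxa9. The call of Hoxa11os was lost without KO replicate 5 (adjusted p = 0.0595) or 7 (0.0687). That of Hoxa9 was lost without KO replicate 5 (0.0755), 7 (0.107) or 8 (0.113) and without WT replicate 13 (0.108) or 14 (0.0516).

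The other members of cluster a did not pass the test. At the 5′ end Hoxa13 measured 25.6 to 29.9 CPM in WT and 27.6 to 29.5 CPM in KO (0.07 ± 0.06), Hoxa11 4.54 to 6.77 and 4.71 to 5.51 CPM (-0.11 ± 0.13), and Hoxa10 67.5 to 76 and 70.1 to 77.2 CPM (0.03 ± 0.05). Hoxa10, with a 95% interval from -0.08 to 0.15, was the best measured of them. In the middle, Hoxa7 (0.10 ± 0.06), Hoxa6 (-0.11 ± 0.11) and Hoxa5 (0.07 ± 0.09) stood against called rises of 0.94, 1.40 and 1.11 in their cluster b paralogs. Hoxa7 was higher in every KO library (13 to 14.1 CPM, against 11.7 to 13 CPM in WT), by a margin too small for a call (edgeR adjusted p = 0.349). Toward the 3′ end Hoxa4 (-0.12 ± 0.21), Hoxa3 (0.11 ± 0.09) and Hoxa2 (-0.18 ± 0.22) were expressed at 1.34 to 6.54 TPM. Of their paralogs, Hoxb2, Hoxd3 and Hoxd4 were near-silent and Hoxc4 was silent. Hoxb3 (2.67 TPM) and Hoxb4 (0.42 TPM) were expressed and called higher.

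Cluster d (chromosome 2, chr2:74668225-74765142, plus strand) had a graded level along its 5′ side. Hoxd13 averaged 78.8 TPM, Hoxd12 5.76, Hoxd11 4.19, Hoxd10 2.22, Hoxd9 1.13 and Hoxd8 0.697 TPM, each lower than its 5′ neighbour, though the ranges over the 8 libraries overlapped between Hoxd12 and Hoxd11 and between Hoxd9 and Hoxd8. Beyond Hoxd8 every member was silent or near-silent. None of the 6 tested was called. Hoxd9, a trunk-level gene, was lower in every KO library: 1.41, 1.31, 1.4 and 1.54 CPM in WT and 1.02, 0.99, 1.14 and 0.947 CPM in KO. Its log2 fold change was -0.47 ± 0.17 (95% interval -0.82 to -0.11), which missed the threshold (edgeR adjusted p = 0.0761). Hoxd13 measured 97.6 to 117 CPM in WT and 91.8 to 102 CPM in KO, overlapping groups (-0.13 ± 0.06, edgeR adjusted p = 0.125), and of the 17 alternatives only leaving out WT replicate 14 gave a call (adjusted p = 0.0336). Hoxd12 (0.00066 ± 0.10), Hoxd11 (0.04 ± 0.12), Hoxd10 (0.09 ± 0.13) and Hoxd8 (0.23 ± 0.29) overlapped between the genotypes.

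Read by paralog group, every group from 3 to 9 contained 1 gene called higher, and it was the cluster b gene each time. Groups 1, 2 and 10 to 13 contained none, and in groups 10, 11 and 12 cluster b has no gene. Summed levels over each group were then read. Group 8, which cluster a lacks, went from 1.78 ± 0.306 TPM in WT to 5.47 ± 1.31 TPM in KO, since Hoxb8 (1.15 and 4.7 TPM) outweighed Hoxd8 (0.627 and 0.766 TPM). Group 6 went from 10.6 ± 1.54 to 21.2 ± 3.25 TPM and group 7 from 18.1 ± 1.28 to 24.8 ± 2.43 TPM, with no overlap of libraries in either. In group 9 the sums were 76.9 ± 3.48 TPM in WT and 80.6 ± 2.94 TPM in KO, as Hoxa9, at 63.1 and 57.5 TPM, supplied most of the RNA. Group 4 stayed low (1.65 ± 0.268 and 1.99 ± 0.181 TPM), and group 13, most of it from Hoxb13, which was not called, had 476 TPM in both (SD 16.2 in WT and 7.33 in KO). Over all 39 coding genes the sum was 671 to 701 TPM in WT and 700 to 735 TPM in KO. These sums were described and not tested.

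**Figure D4:**
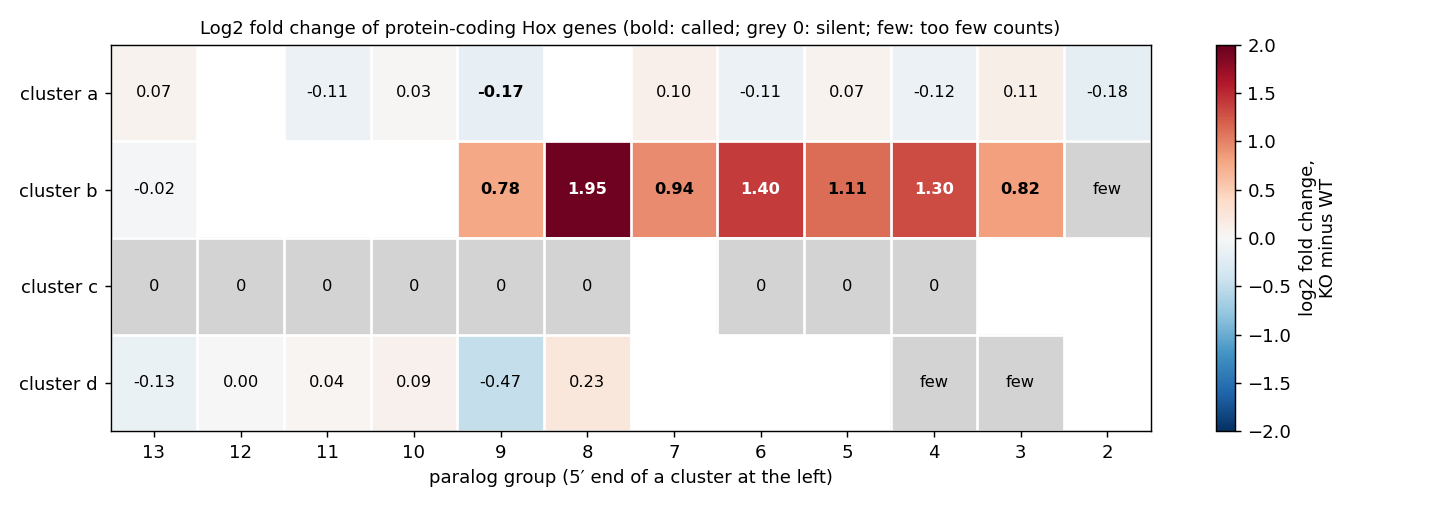
Log2 fold change (KO minus WT) of the protein-coding Hox genes of these groups, with clusters as rows and paralog groups as columns from 13 to 2; colour and number give the fitted value, bold type a call, grey cells with 0 silent genes, grey cells with "few" genes with too few counts, and white cells groups with no gene in that cluster. The row of cluster b is red from group 9 (0.78) to group 3 (0.82), and the rows of clusters a and d run from -0.47 to 0.23.

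Of the 9 non-coding members, 5 were tested. In cluster b Hoxb5os, with few counts, was called higher, and Hoxb3os had 0 counts. In cluster a Hoxa11os was called lower, and Hotairm1 (-0.01 ± 0.12), Hotairm2 (0.30 ± 0.33) and Hoxaas3 (0.11 ± 0.20) were not called. Hotairm1, which is read from the 3′ end of cluster a and was first described in myeloid cells, measured 21.9 to 28.6 TPM, while its neighbour Hoxa2 reached at most 1.91 TPM. In counts they were closer, averaging 3.1 CPM for Hotairm1 and 1.21 CPM for Hoxa2. Their GENCODE M21 exonic lengths, 1025 and 1775 bases, do not account for the TPM gap, so it and the rank of Hotairm1 rest on the length behind the authors' TPM. The other RNAs of the clusters were Hottip, at the 5′ tip of cluster a, and the microRNA precursors and long non-coding RNAs of a list of 10, of which 9 were in the table and 2 were tested. Hottip measured 17.1, 18.7, 20.7 and 21.7 CPM in WT and 24.2, 23.9, 24.7 and 25.8 CPM in KO (0.34 ± 0.07, edgeR adjusted p = 0.00539), while its neighbour Hoxa13 was not called.

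Antisense and overlapping genes limit some of these readings, because the sources used here do not state whether counting used strand. By GENCODE M21 exons, Hoxb4, Hoxb6, Hoxb7, Hoxb8, Hoxb9 and Hoxb13 overlap no other gene's exons on either strand. Hoxb5 shares 3.59% of its exonic bases with Hoxb5os, and Hoxb5os 14.4% with Hoxb5. Hoxb3 shares 52.9% of its exonic bases with Hoxb3os on the other strand, and Hoxb3os had 0 counts. Hoxb3os shares 76.2% of its own bases with Hoxb3 and Hoxb2, so its 0 counts do not settle whether it is silent. Hoxd3os1, also at 0 counts, shares 12.1% with Hoxd4 and Hoxd3. Hoxa11 and Hoxa11os share 35% and 26% of theirs, and Hoxd3 and Hoxd4 share 62.3% and 52.3% with each other or with a transcript joining them, so the split of their few counts is uncertain. Exact 50-base matches to transcripts of other genes covered at most 0.839% of any of the 6 Hoxb genes without overlaps (Hoxb6).

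Hox proteins bind DNA with TALE-class partners of the Meis, Pbx and Pknox families, and none of these was called. Of 9 such genes 8 were tested and Pknox2 was silent. The most abundant, Pbx2, measured 49 to 51.9 CPM in WT and 46.2 to 51.1 CPM in KO (-0.07 ± 0.05, edgeR adjusted p = 0.38). The caudal genes, relatives of Hox genes that set posterior and intestinal identity and act upstream of Hox clusters in the embryo, included 1 called gene. Cdx2, the master regulator of intestinal identity, measured 145, 154, 134 and 144 CPM in WT and 181, 181, 184 and 183 CPM in KO, without overlap (0.33 ± 0.04, edgeR adjusted p = 2.4e-04). Cdx1 was not called (-0.08 ± 0.04), nor was Pdx1 (0.32 ± 0.12, adjusted p = 0.0917), and Cdx4, Gsx1 and Gsx2 were silent. The part of Cdx2 in the Hoxb values was not tested.

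Hox clusters are held off by Polycomb complexes, which place repressive histone marks, and held on by Trithorax-type complexes. Of 20 Polycomb-side genes, all tested, 0 were called higher and 4 lower (beside 7.63% and 8.26% of all genes), and the list's median log2 fold change was -0.09. Ezh2, the enzyme that methylates histone H3 lysine 27, measured 59.9, 57.5, 61.4 and 54 CPM in WT and 48.3, 50.6, 46.8 and 47.5 CPM in KO (-0.27 ± 0.05, edgeR adjusted p = 0.00278). Phf19, an accessory subunit of the same complex, lay between 10 and 11.4 CPM in WT and between 7.68 and 8.87 CPM in KO (-0.42 ± 0.08), and Cbx6, a chromodomain subunit of the second complex, between 27.2 and 31.4 CPM in WT and between 21.2 and 24.5 CPM in KO (-0.32 ± 0.06). Rnf2, the ubiquitin ligase of that complex, was lower by less, with overlapping libraries (-0.23 ± 0.07, edgeR adjusted p = 0.0383), and its call was lost without KO replicate 5 (0.0982), 7 (0.0938) or 8 (0.116) and without WT replicate 13 (0.121) or 15 (0.0779), and with no low-count filter (0.0654). Of 15 Trithorax-side genes, all tested, 0 were higher and 2 lower, with a median of -0.05: Dot1l, which methylates H3 lysine 79 (-0.22 ± 0.04, edgeR adjusted p = 0.00367), and Mllt3, a reader protein that binds Dot1l (-0.18 ± 0.05, adjusted p = 0.0368). Mllt3 lost its call without any 1 of KO replicates 5 to 8 or without WT replicate 13 or 15 (adjusted p = 0.0569 to 0.119), and with no low-count filter (0.061). The part of these genes in the Hoxb values was not tested.

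**Figure D5:**
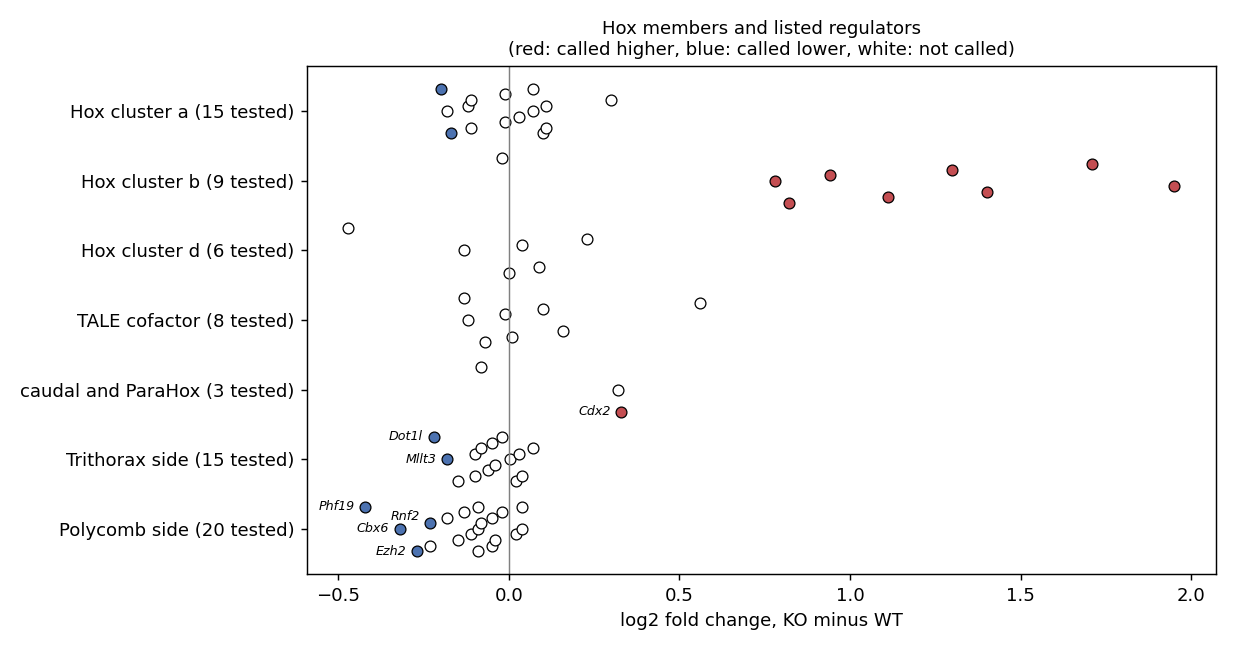
Log2 fold change (KO minus WT) of each tested Hox member by cluster and of each tested gene of 4 lists of Hox cofactors and regulators; every point is 1 gene, red if called higher, blue if called lower and white if not called, and vertical scatter within a row carries no meaning. The 8 red points of cluster b lie between 0.78 and 1.95, while the called genes of the lists lie between -0.42 (Phf19) and 0.33 (Cdx2).

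The tested genes around the clusters showed no change of the size seen from Hoxb9 to Hoxb3. Within 500 kb of the outermost members lay 47 protein-coding neighbours, of which 35 were tested, 3 were called higher and 2 lower, beside 7.63% and 8.26% of all genes tested. These shares lie near that background. Around cluster b 13 of 17 were tested, and their log2 fold changes ran from -0.18 to 0.28 with a median of 0.09. The called ones were Abi3 (0.23 ± 0.06) and B4galnt2 (0.15 ± 0.04), 352 and 279 kb outside the cluster, and Cbx1 (-0.16 ± 0.05), 420 kb outside it. Around cluster a Hibadh was higher (0.14 ± 0.04), and around the silent cluster c 15 of 23 neighbours were tested and Hnrnpa1 was lower (-0.14 ± 0.04). The nearest of those 15, Smug1, a DNA repair glycosylase, lay 116 kb outside cluster c. Of the other 8, 4 were at 0 in all libraries (Gpr84, Gtsf1, Gtsf2 and Ppp1r1a) and 4 had too few counts to test (Amhr2, Npff, Nckap1l and Pde1b). Each of these 5 calls rested on single libraries: Hibadh lost it without KO replicate 5 or 8, Abi3 without KO replicate 5 or 7 or WT replicate 13, B4galnt2 without KO replicate 8 or WT replicate 13, Hnrnpa1 without WT replicate 13 or KO replicate 5, 7 or 8, and Cbx1 without any library but WT replicate 16 (adjusted p = 0.0519 to 0.147). Cbx1 also lost its call with DESeq2 size factors (adjusted p = 0.0517), with library totals alone (0.0564) and with no low-count filter (0.0853).

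Gut mesenchyme, muscle and neurons also express Hox genes, so their markers were read beside the cluster b result. Of 12 mesenchymal markers 6 were at 0 in all libraries (Col1a2, Dcn, Lum, Thy1, Twist1 and Foxf1), 2 were tested and 0 called. Their summed level was 5.79 to 7.17 CPM in KO and 4.13 to 6.64 CPM in WT, nearly all of it Pdgfrb (5.53 to 6.79 CPM in KO and 3.77 to 6.26 CPM in WT, 0.23 ± 0.14, edgeR adjusted p = 0.307). The 6 smooth muscle markers summed to 0.516 to 0.639 CPM in KO and 0.222 to 0.54 CPM in WT, with Cnn1 at 0. The 8 neuronal and glial markers summed to 0.844 to 1.25 CPM in KO and 1.19 to 1.77 CPM in WT, with Sox10 and S100b among those at 0. The 8 immune markers summed to 29.6 to 44.9 CPM in KO and 31.6 to 44 CPM in WT, with Cd3e and Tyrobp at 0 and most of the rest Cd68, which was called lower (-0.31 ± 0.09, edgeR adjusted p = 0.0399) and lost the call when KO replicate 5, 7 or 8, or WT replicate 13, 14 or 16, was left out (adjusted p = 0.0804 to 0.128). That call also ended under limma-voom (adjusted p = 0.061) and without the filter on low counts (0.0678). The epithelial marker Vil1, whose promoter drives the Cre, was called higher (0.25 ± 0.05, edgeR adjusted p = 0.00208). The part of these markers in the Hoxb result was not tested.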

How the data were processed

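RNA sequencing of 8 organoid libraries (4 KO, 4 WT) was read from the gene table deposited by the authors, which holds raw counts, FPKM and TPM per gene and library. The deposited count values are whole numbers, not normalized. Per the submitters' processing notes the authors worked on the build GRCm38 with HTSeq, TopHat, TopHat2 and Bowtie2, with versions, roles and strand setting not given in the sources used here. The authors' FPKM values (per length and depth) were not analysed further, and the authors' TPM values were used only to compare levels between genes. Per the labels' protocols, stranded mRNA libraries were made from 1 µg of RNA with an integrity number above 7.0. In every library more genes had 2 counts than 1, so both mates of a pair may have been counted.

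Low counts were removed by filterByExpr, TMM gave the scaling, and edgeR 4.0.16 (R 4.3.3) supplied a quasi-likelihood test, adjusted by Benjamini-Hochberg over all 14945 genes tested, at 0.05. A gene past that threshold is called, ± is the SE of a log2 fold change or the SD of 4 libraries, and 2-fold refers to a fitted log2 value of 1. The test was checked on simulated counts. Alternatives were other scalings, no filter or at least 1 CPM in 4 libraries, an adjusted p of 0.01, counts divided by 2, DESeq2 1.42.0, limma-voom (limma 3.58.1) and leaving out each library. Positions came from RefSeq GRCm38.p6 for all 48 members, exons from GENCODE M21 (47 members, Hotairm2 not matched), and upstream windows from RefSeq. Tables and plots were made with matplotlib 3.10.9, numpy 2.4.6 and pandas 2.3.3 in Python 3.11.15. The rule for named genes takes every member, every called gene of the other lists (or the 2 most abundant where none was called) and every called neighbour. A few of these genes are not reported here. Members and lists were chosen with earlier results of these data known. Replicate numbers are not shared between genotypes, so no pairing was used.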

Additional observations from a re-analysis of the deposited data

Results flagged for a closer look

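In 60 groups of 4 libraries, 3 members had a library set far apart from the other 3, about as many as the 1 in 20 that chance gives. KO replicate 6 was high for Hoxa7, at 14.1 CPM with the others at 13 to 13.1 CPM, which is the gene whose KO libraries all lay above WT without a call. The same replicate was low for Hoxb3, at 4.41 CPM with the others at 6.29 to 6.41 CPM. WT replicate 13 was low for Hoxb7, at 4.44 CPM with the others at 5.25 to 5.41 CPM.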

How the results depend on the processing

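Over 17 alternatives between 6 and 8 Hox members were called higher, and Hoxb3, Hoxb5, Hoxb6, Hoxb7, Hoxb8 and Hoxb9 were called in all 17. The count of lower members fell from 2 to 1 with no low-count filter (Hoxa9, adjusted p = 0.0543), to 0 at an adjusted p of 0.01 and to between 0 and 2 when 1 library was left out. At an adjusted p of 0.01 the calls over all genes were 562 higher and 597 lower. Leaving out 1 library gave 696 to 1386 higher and 724 to 1404 lower genes, and moved a count by over 1.5 times for KO replicate 5 (757 higher), KO replicate 8 (696 higher, 724 lower) and WT replicate 13 (808 lower). With at least 1 CPM in 4 libraries Hoxb4 and Hoxb5os had too few counts to be tested, and Hoxb5os had no adjusted p with DESeq2 and was not tested with counts divided by 2. No called member changed sign, and the median log2 fold change of all genes stayed between -0.00292 and 0.00263. No paired analysis was possible because the genotypes share no replicate numbers. Depth limits Hoxb2, Hoxd3, Hoxd4 and the silent genes, for which a difference was not detectable.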
